A study of Arabidopsis thaliana with 10 samples.

Results

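The comparison set Arabidopsis cells at the end of a block of DNA replication, sampled at 0 h directly after the drug was washed out, against cells of the same culture 4, 6 and 8 h after release. It uses 4 of the 10 arrays of a time course, 1 array at 0 h and 1 each at 4, 6 and 8 h; the 2 h array and the 5 arrays from 10 to 19 h were not part of the test and are used to follow the genes afterwards. The 0 h cells were a dark-grown MM2d suspension, diluted from early stationary phase into medium with sucrose, an auxin and kinetin, and held in aphidicolin for 24 h. The 4-8 h cells had the same history and were then returned to fresh medium without the drug. All 4 samples therefore carry the block and the wash, and no unblocked or mock-washed culture was analysed here. The series title gives cell cycle study across the genome as the purpose.

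Aphidicolin inhibits the replicative DNA polymerases, so treated cells gather around the start of S phase and enter replication together when it is removed. MM2d is a fast-dividing line of loose cells and small clumps, kept in darkness on sugar. Removing the drug means pouring cells over a net, rinsing and spinning them. Plant cells are known to answer handling, wounding and a change of medium within minutes through calcium signals, which switch on transcription factors of the WRKY, ERF and C2H2 zinc finger families, calmodulin-like proteins and wall enzymes. A 0 h sample may thus hold transcripts of the blocked state, of the drug and of the wash, and these cannot be told apart here, because every 0 h cell had all of them.

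Each value is a MAS5 signal, the summarised brightness of the probes for 1 transcript (a probe set) on an Affymetrix ATH1 array. Differences are in log2 units, 0 h minus the mean of 4, 6 and 8 h, so a difference of 1 is a doubling. Signals under 12 were set to 12, the floor, and a difference that rests on a floored value is a lower bound. With 1 array at 0 h, that array was assumed to vary like the 3 later ones, which are different times of 1 culture, so that their spread also holds any change between 4 and 8 h. All p-values measure only this spread. In bulk RNA, fewer cells of a type and less transcript per cell cannot be told apart.

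More probe sets were called higher at 0 h than lower, though differences over all tested probe sets did not lean upward. Of 13647 probe sets tested with limma, 86 were called higher at 0 h (0.63%) and 16 lower (0.117%) at an adjusted p under 0.05, 102 in all (0.747%). The 86 were higher by a median of 2.26 log2 units, with a range of 1.15 to 4.59, and 55 of them by 2 units or more. The 16 were lower by a median difference of -1.69, with a range of -2.34 to -1.29. The median difference over all 13647 was -0.04, and 45.4% of them were positive. An unadjusted p under 0.05 was reached by 1090 probe sets that were higher (7.99%) and 1147 that were lower (8.4%).

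How firmly these calls stand depends on the 3 later arrays. Leaving out 6 h, limma called 0 probe sets (1467 at an unadjusted p under 0.05). Leaving out 8 h, it called 0 (2098 at an unadjusted p under 0.05), and leaving out 4 h, it called 202 higher and 57 lower. All 47 called genes with a name or locus code lost their call when the 6 h array was left out (adjusted p 0.0909 to 0.249), and also when the 8 h array was (0.0861 to 0.140). Another fit held all 10 arrays, with 2 h as a group of its own. There the arrays from 10 to 19 h also entered the estimate of spread. That fit called 496 higher and 429 lower, among them all 86 and 15 of the 16.

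**Figure D1:**
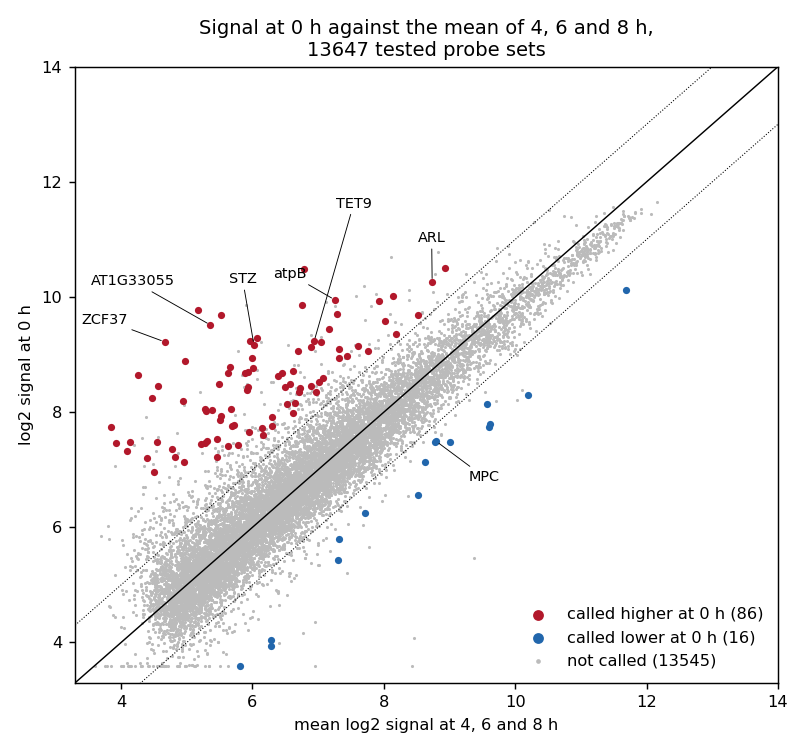
Each point is 1 tested probe set, with the mean log2 signal of the 4, 6 and 8 h arrays on the horizontal axis and the log2 signal of the 0 h array on the vertical axis; the solid line marks equal signal and the dotted lines a difference of 1 log2 unit either way. The 86 probe sets called higher at 0 h lie mostly over low and middle signals, and the 16 called lower are fewer and reach high signals.

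The scatter plot of the 0 h signal against the later mean also shows a lean at its bright end. Among the 463 probe sets with a mean signal over 1024, the median difference was -0.26 and 14.5% were positive, whereas among the 6302 with a mean signal of 64 to 256 the median was -0.01 and 48.9% were positive. After quantile normalization the medians were -0.05 and -0.06. The quantile-normalized value is therefore given below for some list medians. Differences of single genes, bright ones included, are given without it.

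Of the 102 called probe sets, 47 name 1 gene, 3 name several and 52 are listed without a gene, and 8 of the 47 have a symbol. The strongest single difference, 4.59, belongs to a probe set with no gene listed, with a signal of 870.2 at 0 h, against 25.96, 54.3 and 33.4 at 4, 6 and 8 h (adjusted p = 0.0225). The named gene with the lowest adjusted p was AT1G33055, a locus without a symbol. Its signal was 731 at 0 h, against 40.5, 41.2 and 41.3 at 4, 6 and 8 h, a difference of 4.16 (SE 0.21, limma adjusted p = 0.00564). The 3 later values are nearly equal and the 0 h value is 17.8 times as high. This was the single call that passed in limma when the spread was not allowed to vary with the mean signal (adjusted p = 0.0402). On arrays outside the test AT1G33055 varied more. Its log2 signal minus the 4-8 h mean was 0.98 at 12 h, 1.88 at 14 h and -1.77 at 19 h, where it was at the floor.

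Among genes with a symbol, ZCF37 stood furthest above its later level. It had a signal of 597 at 0 h, against 42.7, 9.42 and 31.7 at 4, 6 and 8 h. The 6 h value lies under the floor, so the difference is at least 4.56 (SE 0.66, adjusted p = 0.0449). At 2 h it stood at 106, between the 0 h and the later values.

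STZ, also called ZAT10, is a C2H2 zinc finger repressor of transcription that is induced by salt, cold, drought and wounding. Its signal was 575 at 0 h, against 42.2, 96.2 and 67.6 at 4, 6 and 8 h. The difference was 3.15 (SE 0.43, adjusted p = 0.0394), and the 0 h value stood far outside the later ones even though these differed among themselves. From 10 to 19 h STZ lay between 69.3 and 101, within or close to its 4-8 h range.

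TET9 encodes a tetraspanin, a small membrane protein with 4 membrane spans. It had a signal of 600.0 at 0 h, against 128, 110 and 131 at 4, 6 and 8 h, a difference of 2.29 (SE 0.20, adjusted p = 0.0225). The 3 later arrays were close together for TET9, and its level had come down to 159 by 2 h. Its relative TET8 was also highest at 0 h with 557, against 147, 250 and 378, but the later arrays climb with time and the difference of 1.21 did not pass (SE 0.46, adjusted p = 0.270). TET8 was named after its values were seen.

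ARL is a relative of ARGOS, and it promotes organ growth through cell expansion downstream of brassinosteroids. Its signal was 1225 at 0 h, against 508, 380 and 401 at 4, 6 and 8 h, a difference of 1.52 (SE 0.21, adjusted p = 0.0394). AILP1, whose name stands for its likeness to an aluminium-induced protein, stood at 369 at 0 h, against 147, 110 and 135. Its difference was 1.51 (SE 0.23, adjusted p = 0.0496), just inside the threshold. AILP1 dipped to 85.5 at 2 h, under all 3 later values, and ARL to 303, also under all 3.

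Of the 42 single genes called higher, 35 are locus codes without a symbol, and no roles are given for them here. AT5G52750 had 215 at 0 h, against 11.3, 3.21 and 20.5 at 4, 6 and 8 h, a difference of at least 3.90 (SE 0.47, adjusted p = 0.0290). AT1G23710 stood at 292 at 0 h, against 25.2, 35.4 and 32.6, a difference of 3.25 (SE 0.30, adjusted p = 0.0225). AT3G17110 stood at 625 at 0 h, against 83.4, 68.0 and 52.5, a difference of 3.23 (SE 0.29, adjusted p = 0.0225). In each of these 3 genes the 0 h signal was far above the highest later one. AT2G32020 and AT2G32030 are direct neighbours on their chromosome, 1 of 2 neighbouring pairs among the 42 genes called higher. AT2G32020 had 165 at 0 h, against 24.2, 32.4 and 26.3 (difference 2.59, SE 0.32, adjusted p = 0.0297), and AT2G32030 had 141, against 26.02, 33.8 and 34.5 (difference 2.18, SE 0.31, adjusted p = 0.0442).

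The other neighbouring pair was atpB and atpE, which lie next to each other in the plastid genome and are transcribed together. They encode the beta and epsilon subunits of the catalytic head of the plastid ATP synthase. The atpB signal was 990.0 at 0 h, against 174, 168 and 121 at 4, 6 and 8 h, a difference of 2.70 (SE 0.25, adjusted p = 0.0225). The atpE signal was 655 at 0 h, against 296, 307 and 272, a difference of 1.17 (SE 0.17, adjusted p = 0.0474). Both stood at their later level by 2 h, atpB with 155 and atpE with 298. The other tested subunits had negative differences that did not pass. The signal of atpA, the alpha subunit of the same catalytic head, was 153 at 0 h, against 139, 205 and 167 (difference -0.14, adjusted p = 0.834). The membrane subunits atpF, atpH and atpI had differences of -0.40, -0.85 and -0.70 (adjusted p = 0.670, 0.3204 and 0.356). ATPC1, the nuclear gene for the gamma subunit, had 64.9 at 0 h, against 101, 102 and 140 (difference -0.80, adjusted p = 0.218). rbcL, which lies beside atpB on the opposite strand and encodes the large subunit of rubisco, had 36.0 at 0 h, against 42.2, 35.8 and 33.0 (difference -0.03, adjusted p = 0.977). The subunits other than atpB and atpE, and rbcL, were chosen after values were seen.

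**Figure D2:**
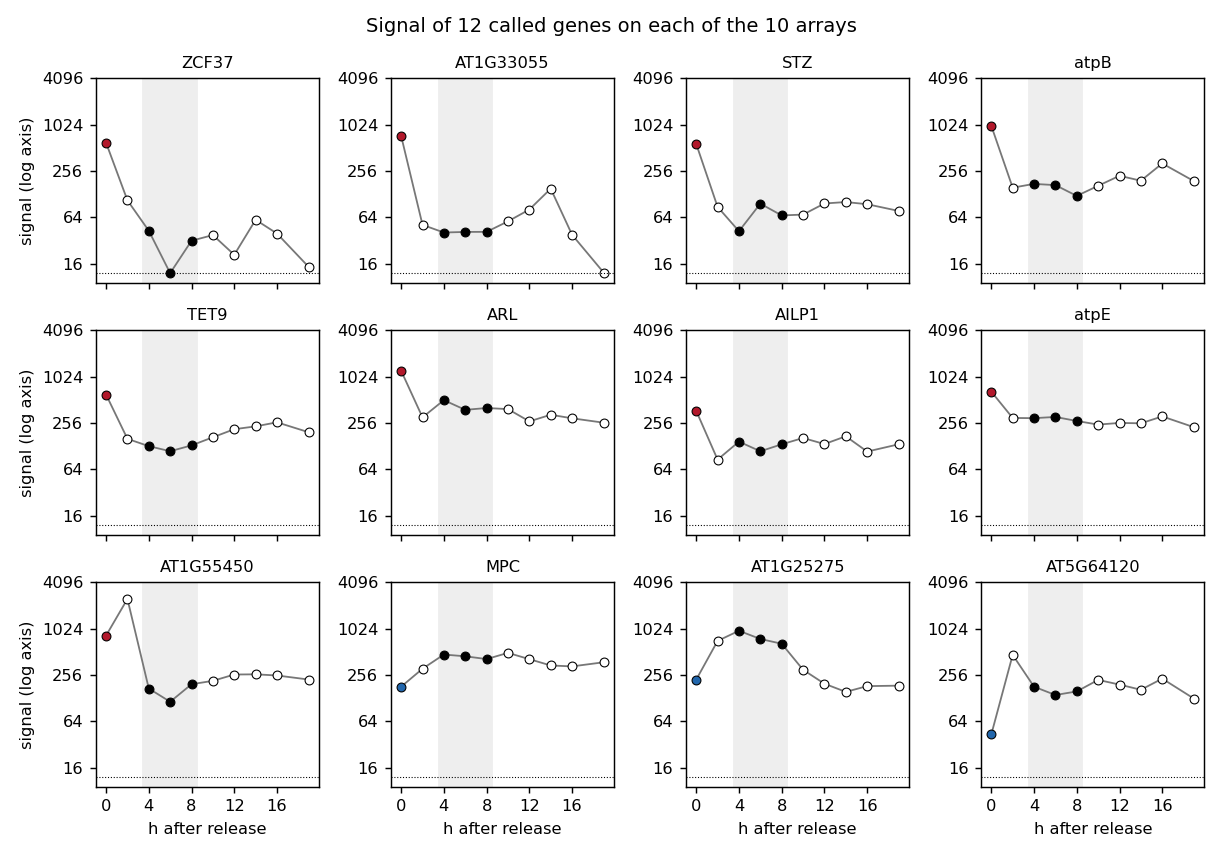
Each panel shows 1 called gene, with hours after release on the horizontal axis and the signal on a log axis; each point is 1 array, coloured at 0 h (red for genes called higher, blue for genes called lower), black at 4, 6 and 8 h (shaded) and open at the times outside the test, and the dotted line marks the floor of 12. STZ, atpB and TET9 are highest at 0 h and low by 2 h, ZCF37 is highest at 0 h and still 2.07 log2 units above its 4-8 h mean at 2 h, AT1G55450 is higher still at 2 h, and MPC, AT1G25275 and AT5G64120 are low at 0 h.

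Fewer genes were called lower at 0 h than higher. MPC, which encodes a maternally expressed protein like the C-terminal part of poly(A)-binding proteins, had a signal of 180 at 0 h, against 473, 449 and 413 at 4, 6 and 8 h. The difference was -1.30 (SE 0.18, adjusted p = 0.0394), and MPC stood between these levels at 2 h with 309. AT5G64120 is peroxidase 71 (PRX71), a secreted haem enzyme that acts on the cell wall. Its signal was 43.2 at 0 h, against 180.4, 141 and 157 at 4, 6 and 8 h, a difference of -1.88 (SE 0.23, adjusted p = 0.0290). It overshot at 2 h with 468, the highest of its 10 values. AT1G25275 stood at 223 at 0 h, against 964, 754 and 654, a difference of -1.81 (SE 0.24, adjusted p = 0.0394). It was high from 2 h to 8 h, and from 10 h on it stood between 155 and 299.7. AT3G10530 had 141 at 0 h, against 387, 370.2 and 428 (difference -1.48, SE 0.18, adjusted p = 0.0290), and stayed between 388 and 482 from 10 to 19 h. AT3G50370 had 75.6 at 0 h, against 233, 203 and 193 (difference -1.47, adjusted p = 0.0394).

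Since 1 gene with a symbol was called lower, 4 further genes with the lowest p are given as not called. Prx37, another secreted peroxidase, had 214 at 0 h, against 426, 460 and 422 at 4, 6 and 8 h, a difference of -1.02 (SE 0.17, adjusted p = 0.0622). Like PRX71 it was far higher at 2 h, with 717. SAMDC, S-adenosylmethionine decarboxylase of polyamine synthesis, had 684 at 0 h, against 1252, 1357 and 1237, a difference of -0.91 (SE 0.16, adjusted p = 0.0730). TRM19 had 362 at 0 h, against 666, 715 and 679 (difference -0.92, SE 0.16, adjusted p = 0.0718), and RBL had 132, against 226, 292 and 262 (difference -0.97, SE 0.21, adjusted p = 0.115). In all 4 the 0 h value lay under each of the later ones.

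The arrays outside the test show where these transcripts stood at other times. At 2 h, 45 of the 86 were nearer to their 4-8 h level than to their 0 h level, 41 still stood at least 1 log2 unit above the 4-8 h mean, and the median over the 86 was 0.91 above it. From 10 to 19 h, between 76 and 83 of the 86 were nearer to the 4-8 h level, the median lay 0.14 to 0.52 above it, and at none of these 5 times did a probe set exceed its 0 h value. For 75 of the 86, 0 h was the highest of the 10 arrays, against 13.2% of all tested probe sets; since the 86 were chosen as high at 0 h against 3 of the other 9 arrays, this is a description only. Of the 16 that were lower, 11 were nearer the 4-8 h level at 2 h and 11 to 13 at the times from 10 to 19 h. All counts of probe sets nearer the 4-8 h level depend on the choice by an extreme 0 h value too. They were not made over all tested probe sets, so they are a description only.

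**Figure D3:**
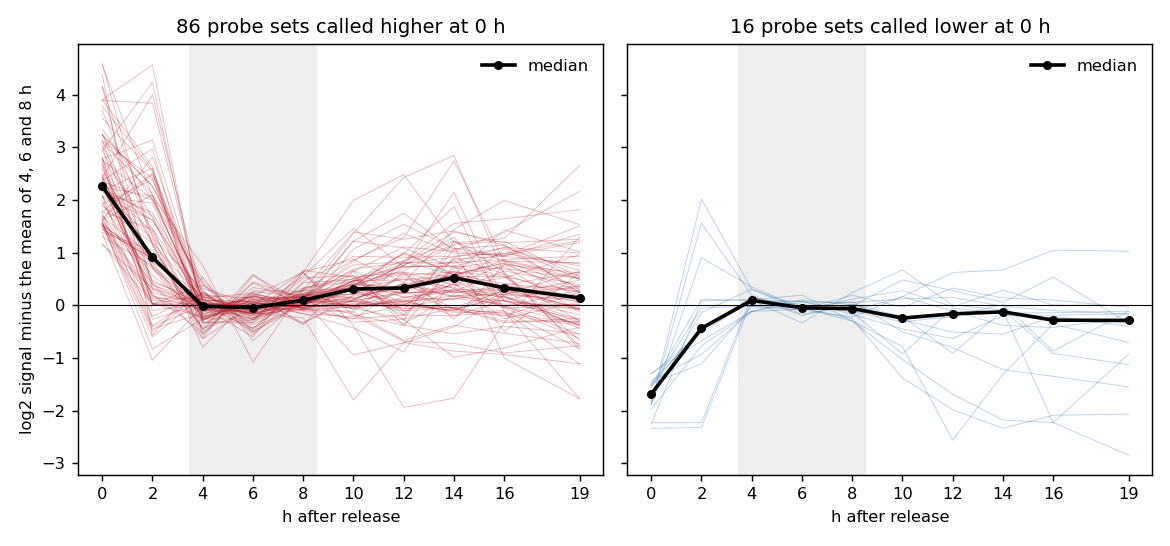
Thin lines are single probe sets, the thick black line is their median, the vertical axis is log2 signal minus the mean of 4, 6 and 8 h, and the horizontal axis is hours after release, with the tested later times shaded; values at 4, 6 and 8 h lie near 0 by construction. The median of the 86 probe sets called higher is 2.26 for 0 h, 0.91 for 2 h and 0.14 for 19 h, and the median of the 16 called lower is -1.69, -0.44 and -0.29 for the same times.

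The 86 were not uniform at 2 h. A smaller set, 11 of the 86, was higher at 2 h than at 0 h. AT1G55450 had 834 at 0 h, against 171, 115 and 194 at 4, 6 and 8 h (difference 2.42, SE 0.30, adjusted p = 0.0323), and 2499.9 at 2 h. AT1G66880 had 241 at 0 h, against 83.8, 82.7 and 70.1 (difference 1.61, SE 0.22, adjusted p = 0.0394), and 554 at 2 h. AT5G52750, described above, stood at 340 at 2 h, and AT4G39830 at 802, with 598 at 0 h and 115 to 166 at 4-8 h (difference 2.18, SE 0.26, adjusted p = 0.0290). Others dropped at once. AT1G33055 was at 51.0 and AT2G17850 at 45.4 by 2 h, the second with 361 at 0 h, against 43.6, 48.3 and 42.5 at 4, 6 and 8 h (difference 3.01, SE 0.23, adjusted p = 0.0225). The plot of 0 h against 2 h values shows both kinds.

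**Figure D4:**
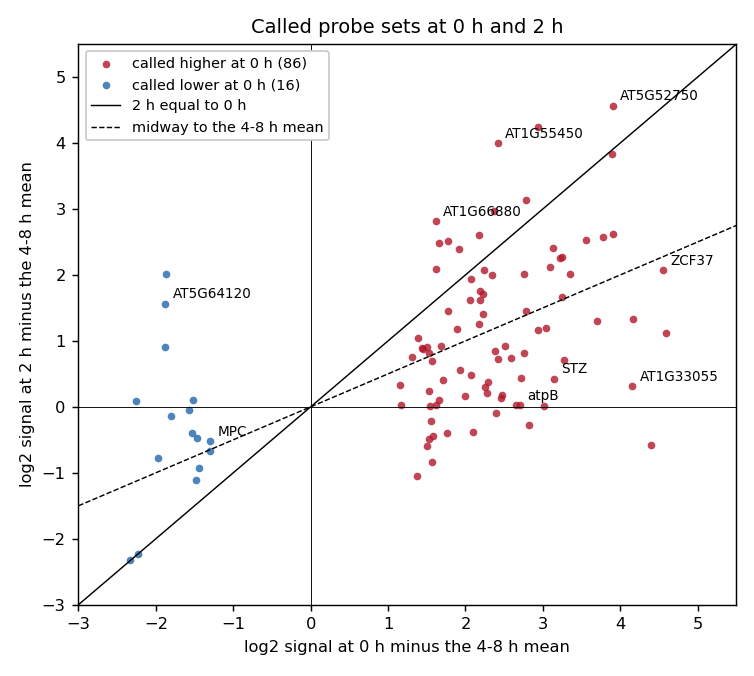
Each point is 1 called probe set, with the log2 signal at 0 h on the horizontal axis and at 2 h on the vertical axis, both minus the mean of 4, 6 and 8 h; among the genes called higher, points above the solid line were further from the 4-8 h level at 2 h than at 0 h, and points between the dashed line and 0 had come more than midway to it. AT1G55450, AT1G66880 and AT5G52750 lie above the solid line, and STZ, atpB and AT1G33055 lie near 0 at 2 h.

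A rule of size, without a test, widens the view: 591 probe sets stood above all 3 later arrays and at least 1 log2 unit over their mean (4.33%), and 211 below all 3 by as much (1.55%). A further 205 lay at 0.9 to 1. Genes of the lists below that met this rule without being called were named after their values were seen. Each list is given by its counts and median beside those of all tested probe sets, of which 28.6% lay above all 3 later arrays and 35.3% below. List counts at an unadjusted limma p under 0.05 hold both directions unless 1 is given, and 16.4% of all tested probe sets reached it.

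Of the genes in the list for touch, wounding and calcium response, 9 were tested. One of them, STZ, was called higher, 7 of the 9 differences were positive, and the list's median was 1.11. CML23, a calmodulin-like calcium sensor, had 171 at 0 h, against 9.61, 10.3 and 42.8 at 4, 6 and 8 h, a difference of at least 3.22 that did not pass (SE 0.75, adjusted p = 0.129). WRKY53, a regulator of leaf senescence and defence, had 133 at 0 h, against 46.6, 24.4 and 19.6 (difference 2.24, adjusted p = 0.122). PUB23 and PUB24, ubiquitin ligases that damp the immune response, had 59.0 and 121 at 0 h, with differences of 1.11 and 1.15 (adjusted p = 0.219 and 0.115). Their relative PUB22 was not apart, with 21.4 at 0 h, against 28.3, 4.53 and 29.1. CML42 lay under all 3 later arrays, with 34.7 at 0 h, against 54.1, 63.8 and 44.4 (difference -0.63, adjusted p = 0.380).

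The list of WRKY and ERF factors had 6 tested members, all of the WRKY family, WRKY53 among them, and no ERF. They had 0 calls by limma (3 at an unadjusted p under 0.05), 5 positive differences and a median of 0.62. WRKY22, of the pathway of MAP kinases in immunity, had 84.5 at 0 h, against 30.9, 38.3 and 38.7 (difference 1.24, adjusted p = 0.143), and 174 at 2 h. WRKY6, a factor of senescence and phosphate supply, had 309 at 0 h, against 200.004, 138 and 141 (difference 0.97, adjusted p = 0.163), and 506 at 2 h.

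Wall genes leaned the same way without passing singly. Expansins and XTH enzymes loosen and rejoin the cellulose and xyloglucan network of the primary wall, and 12 were tested. In limma 0 were called (3 at an unadjusted p under 0.05), all 12 differences were positive, 9 of the 12 lay above all 3 later arrays, and the median was 0.39. XTH19 had 147 at 0 h, against 12.0, 26.2 and 28.1, a difference of 2.83 (SE 0.54, adjusted p = 0.0892). XTH18 had 268 at 0 h, against 62.6, 124 and 108 (difference 1.51, adjusted p = 0.150), and EXLA3, an expansin-like protein, 452, against 158, 117 and 245 (difference 1.45, adjusted p = 0.160). Among 29 other wall genes 0 were called (8 at an unadjusted p under 0.05), 22 were positive and the median was 0.43. CSLC04, which makes the glucan backbone of xyloglucan, had 344 at 0 h, against 151, 156 and 178, a difference of 1.10 (SE 0.19, adjusted p = 0.0746). TBL37, of a family that acetylates wall polymers, had 77.4 at 0 h, against 17.1, 33.6 and 27.1 (difference 1.63, adjusted p = 0.174). With 0 h and 2 h averaged, the median of the 29 was -0.01, and without the filter on mean signal it was 0.07 over 52 probe sets. At 2 h XTH19 was under the floor with 11.8 and CSLC04 stood at 114, under all 3 later values. Summed without the filter, 30 expansin and XTH probe sets gave 4721 for 0 h and 3207 to 3830 over 4-8 h. Their sum later rose to 4874 for 16 h and 5122 for 19 h. The 52 other wall probe sets summed to 4813 for 0 h and 2675 to 3929 over 4-8 h. Their sum later reached 4889 for 16 h and 5737 for 19 h. A high summed wall signal was therefore not confined to 0 h.

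The 11 tested autophagy genes were all at or above their later level. Autophagy delivers cell contents to the vacuole for reuse when sugar or nitrogen runs short, and its ATG8 proteins coat the growing membrane. In limma 0 were called (3 at an unadjusted p under 0.05), 11 of 11 differences were positive, 10 lay above all 3 later arrays, and the median was 0.31. ATG8E had 607 at 0 h, against 196, 218 and 327, a difference of 1.33 (SE 0.30, adjusted p = 0.121), and 454 at 2 h. ATG8H had 73.8 at 0 h, against 14.0, 13.0 and 34.9 (difference 1.99, adjusted p = 0.209). The other 9 differed by 0.01 to 0.50.

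The organelle genomes gave 2 calls in all. Of 44 plastid genes of photosynthesis, 2 were called higher, atpB and atpE, 18 differences were positive and the median was -0.06. Of 22 plastid genes for transcription, translation and protein turnover, 0 were called by limma (5 at an unadjusted p under 0.05), 16 were positive and the median was 0.27. In this group clpP, a subunit of the plastid protease, had 651 at 0 h, against 227, 299.5 and 277 (difference 1.29, SE 0.21, adjusted p = 0.0613), and rps2, a ribosomal protein, had 223, against 101, 95.9 and 70.7 (difference 1.34, adjusted p = 0.0927). Of 16 mitochondrial probe sets, 0 were called (2 at an unadjusted p under 0.05) and the median was -0.04. Among them ccb452, which serves the maturation of cytochrome c, had 257 at 0 h, against 111, 128 and 112 (difference 1.14, SE 0.20, adjusted p = 0.0735), and ccb382, of the same pathway, had 302, against 144, 187 and 130 (difference 0.99, adjusted p = 0.149).

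Nuclear genes of photosynthesis were on the other side. Of 12 tested, 0 were called by limma (7 at an unadjusted p under 0.05, 6 lower and 1 higher). In all, 11 differences were negative, 9 lay below all 3 later arrays and the median was -0.56, or -0.59 after quantile normalization. PSAE-1, a stromal subunit of photosystem I, was under the floor at 0 h with 2.80, against 32.1, 31.0 and 41.1, a difference of -1.52 that is a lower bound in size (SE 0.41, adjusted p = 0.167). PSBY, a small protein of photosystem II, had 119 at 0 h, against 184, 214 and 204 (difference -0.75, adjusted p = 0.156). HEMA2, for the first step of haem and chlorophyll synthesis in non-green tissue, was the exception with 69.7 at 0 h, against 37.3, 38.0 and 38.7 (difference 0.87, adjusted p = 0.210). This list also served as the marker list for leaf-like cells. Its summed signal was 882 at 0 h, against 1117 to 1441 at 4-8 h, and was lower still at 2 h with 788.

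Nuclear genes of the TCA cycle and mitochondrial respiration had 0 calls of 16 by limma (4 at an unadjusted p under 0.05, 3 lower and 1 higher). They had 11 negative differences and a median of -0.30, which was -0.18 after quantile normalization. FDH, formate dehydrogenase, had 30.2 at 0 h, against 55.3, 88.1 and 112 (difference -1.44, adjusted p = 0.174), with the later arrays climbing. CYTC-2, a cytochrome c, stood on the other side with 675 at 0 h, against 444, 366 and 452 (difference 0.69, adjusted p = 0.174).

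**Figure D5:**
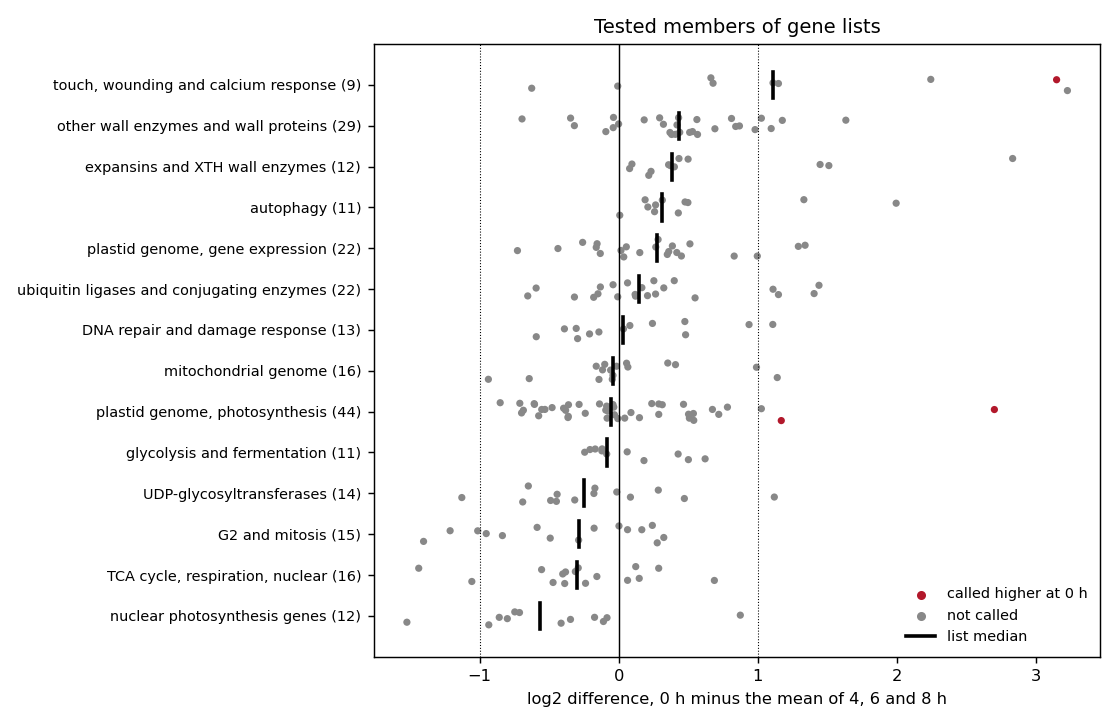
Each dot is 1 tested probe set of a list with at least 9 tested members, placed by its log2 difference, 0 h minus the mean of 4, 6 and 8 h; black bars are list medians, red dots are called higher, and the number tested stands in brackets. Touch, wall and autophagy genes lie mostly to the right of 0, with medians of 1.11, 0.43, 0.39 and 0.31, and nuclear photosynthesis genes mostly to the left, with a median of -0.56.

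No tested gene of the cell cycle lists was called between 0 h and the next hours. The 5 tested core histones, which package DNA, had 0 calls by limma (1 at an unadjusted p under 0.05), 5 positive differences and a median of 0.17. Among the 5 is the centromeric histone HTR12, which is also counted in the G2 and mitosis list below. HTB11, a histone H2B, had 339 at 0 h, against 260, 251 and 236 (difference 0.45, SE 0.17, adjusted p = 0.279), and HTB4 675 at 0 h, against 615, 579 and 606 (difference 0.17, adjusted p = 0.647). Both were higher at 2 h, with 665 and 1190.3. Of 4 replication genes 0 were called (0 at an unadjusted p under 0.05). POLA3, a subunit of the primase complex, had 424 at 0 h, against 291, 353 and 259 (difference 0.51, adjusted p = 0.317), and PSF2, of the replication fork helicase, had 68.7, against 44.0, 51.0 and 47.3 (difference 0.54, adjusted p = 0.373). Of 13 genes of DNA repair 0 were called (3 at an unadjusted p under 0.05) with a median of 0.03. RECQI1, a RecQ helicase, met the rule of size with 83.3 at 0 h, against 56.2, 29.1 and 35.5 (difference 1.11, adjusted p = 0.258).

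FBL17, an F-box protein that removes inhibitors of cyclin-dependent kinases, had 480.0 at 0 h, against 472, 233.7 and 239.9 (difference 0.69, adjusted p = 0.444), so that it was nearly as high at 4 h as at 0 h. Of 15 genes of G2 and mitosis 0 were called (1 at an unadjusted p under 0.05), 9 were negative and the median was -0.29. BUB3.1, a spindle checkpoint protein, had 37.9 at 0 h, against 76.5, 78.7 and 113 (difference -1.21, SE 0.30, adjusted p = 0.146). Several mitotic genes climbed within the 4-8 h window, which widens its spread: TOPII, topoisomerase II, had 57.5 at 0 h, against 43.0, 83.4 and 383.

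Genes of protein synthesis lay under their later level at 0 h in the few members that were tested. In limma 0 of 3 ribosome assembly genes were called (2 at an unadjusted p under 0.05), all 3 differences were negative, each below all 3 later arrays, and the median was -0.65, or -0.52 after quantile normalization. AT5G14520, PESCADILLO, a nucleolar factor for the large ribosomal subunit, had 835 at 0 h, against 1299.8, 1332 and 1288 (difference -0.65, SE 0.15, adjusted p = 0.131). RRP41, a subunit of the RNA-processing exosome, had 237 at 0 h, against 379, 376 and 398 (difference -0.69, adjusted p = 0.136). Of 2 translation factors 0 were called (2 at an unadjusted p under 0.05), and both differences were negative. EIF4A-2, an RNA helicase of translation initiation, had 812 at 0 h, against 1425, 1425 and 1225 (difference -0.74, SE 0.17, adjusted p = 0.129). FUG1, an initiation factor of the plastid, had 65.6 at 0 h, against 90.9, 102 and 98.2 (difference -0.56, adjusted p = 0.272).

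The list of peroxidases had 3 tested members, without Prx37. Of these 3, PRX71 was called lower, and PRX52 had 297 at 0 h, against 889, 677 and 417 (difference -1.09, adjusted p = 0.241), and 1109 at 2 h. Of 4 phenylpropanoid and flavonoid genes, which feed lignin and phenolic synthesis, 0 were called (2 at an unadjusted p under 0.05). CCR2, cinnamoyl-CoA reductase, had 95.5 at 0 h, against 26.6, 14.6 and 21.4 (difference 2.24, SE 0.45, adjusted p = 0.101). HCT, a hydroxycinnamoyl transferase, had 202 at 0 h, against 477, 330.3 and 273 (difference -0.80, adjusted p = 0.274). Both reached their highest value at 2 h, CCR2 with 722 and HCT with 2119. The 14 UDP-glycosyltransferases had 0 calls by limma (1 at an unadjusted p under 0.05, which was higher) and a median of -0.25. The 22 ubiquitin ligases and conjugating enzymes had 0 (6 at an unadjusted p under 0.05, 4 higher and 2 lower) and a median of 0.14. They include PUB22, PUB23 and PUB24 of the touch list and UBC19 and UBC20 of the G2 and mitosis list.

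The 2 seed storage and embryo probe sets summed to 27.4 at 0 h, against 35.6 to 48.3 at 4-8 h, the 2 root hair probe sets to 36.0, against 42.4 to 85.1, and none of these 4 passed the filter on mean signal. The 3 secondary wall probe sets summed to 102 at 0 h, against 76.1 to 99.6, and 2 of them were at the floor on all 10 arrays. The other, GUT2, had 78.4 at 0 h, against 52.1, 75.6 and 70.4, and was not called (difference 0.27, adjusted p = 0.699).

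The 4 arrays had like overall properties. Their median signals lay between 37.5 and 42.0, and 24.1% to 25.9% of probe sets were at the floor. The Spearman correlation over all probe sets was 0.938 to 0.955 between 0 h and a later array and 0.954 to 0.960 among the later arrays, the 6 h array giving the lowest value with 0 h. The ratio of 3′ to 5′ signal of the GAPDH control, a sign of RNA quality, was 1.15 at 0 h, against 1.20, 1.10 and 1.32 at 4, 6 and 8 h, and that of the actin control 3.90, against 3.65, 2.16 and 4.25, so the 0 h array lay within the later range on both. The same ratio of the ubiquitin control was 3.67 at 0 h, against 3.53, 2.90 and 3.38, above all 3 later arrays and the highest of the 10 arrays. The part of this in the calls was not tested. Of the called probe sets, 3 of the 86 and 3 of the 16 carry a suffix of probes that may read several genes, against 4.29% of all tested.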

How the data were processed

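Total RNA labelled with biotin was measured on 10 ATH1 arrays, 1 per time. The deposited intensity values are MAS5 signals, per the submitters' processing notes; their version is not given in the sources used here, and the values show scaling to a 2% trimmed mean of 99.3 to 99.4 on each array. Of 22810 probe sets, 64 controls were dropped; 13513 of the rest name 1 gene, 503 several and 8730 none, by the platform annotation with names updated from RefSeq (TAIR10.1, 13436 matched). Signals were floored at 12 and log2 was taken. The test took the 13647 probe sets whose log2 mean across all arrays, 0 h included, exceeded the 40th percentile of such means. limma 3.58.1 in R 4.3.3 compared 0 h (1 array) with 4, 6 and 8 h (3 arrays) by eBayes with a mean trend (residual degrees of freedom 2, prior 4.64) and Benjamini-Hochberg adjustment, and 0.05 was the threshold. The script was tested on simulated data. No array has a replicate, and the number of arrays limits the precision.

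Genes named were called genes with 0 h outside the later range, at most 15 per direction with a symbol and otherwise by locus code, those with the lowest p where under 5 passed, and list members that were called or had the lowest p. The comparison, the 46 gene lists and the 14 alternatives were chosen with earlier results of these data known. Promoter motifs were not analysed here.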

Additional observations from a re-analysis of the deposited data

How the results depend on the processing

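The counts called by limma, 86 higher and 16 lower at 0 h, depended on the settings. They became 0 and 0 with a floor of 25 (2167 at an unadjusted p under 0.05) and with 0 h and 2 h as 1 group (2500), 1 and 0 without a mean trend (1950), 328 and 12 without the filter on mean signal, of which 10 and 1 were among the 86 and 16, 52 higher with the 60th percentile as filter, 48 and 9 with quantile normalization, 27 lower with median centring, and 496 and 429 with all 10 arrays in the fit. Leaving out 1 later array gave 0 to 202 higher and 0 to 57 lower, with 0 and 0 without 6 h (1467 at an unadjusted p under 0.05) and without 8 h (2098). A floor of 6, a pseudocount of 16 and robust moderation kept both counts within 1.5 times. The causes were not tested. The direction of all 86, where tested, held in all 14 alternatives, and that of the 16 in all except 0 h and 2 h together, where 15 held. By the rule of size, the counts of 591 above and 211 below became 137 below with a floor of 25, 391 and 97 with the pseudocount, and 351 and 97 with the 60th percentile, where fewer probe sets were tested. Among 47 called genes, 320 of 647 outcomes lost the call and 0 reversed, a reversal that most of the settings could not have given. Of 661 outcomes for genes that met the rule of size without a call, 46 gained a call and 1 reversed: GTR2, a glucosinolate transporter with a difference of -1.67, stood at 0.39 with 0 h and 2 h together. Of 419 list medians, 37 moved by more than the spread and 23 changed sign. No paired analysis was possible because each time has 1 array and all arrays carry the same replicate number.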

Other observations

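Other genes with a symbol met the rule of size at 0 h without being called and belong to no list described above; they were chosen after their values were seen. SCPL45, a carboxypeptidase-like protein, had a signal of 449 at 0 h, against 33.8, 153 and 189 at 4, 6 and 8 h, a difference of 2.18 (limma adjusted p = 0.293). SAG101, a lipase-like protein of defence signalling, had 384 at 0 h, against 111, 136 and 303, a difference of 1.21 (adjusted p = 0.314). In both the later arrays climbed toward the 0 h value. BGLU46, a beta-glucosidase of the family that acts on lignin precursors, had 108 at 0 h, against 32.2, 31.5 and 24.2 (difference 1.90, adjusted p = 0.0718). VPS60.1, of the membrane-sorting ESCRT machinery, had 279.6 at 0 h, against 132, 137 and 140.3 (difference 1.04, adjusted p = 0.0749), and 339 at 2 h. On the low side, GTR2 had 21.3 at 0 h, against 118, 40.7 and 64.5, a difference of -1.67 (adjusted p = 0.218), and stood at 370.4 at 2 h. FMO, a flavin monooxygenase, had 117 at 0 h, against 305, 300.0 and 194.5 (difference -1.16, adjusted p = 0.148), and was back at 81.1 by 12 h.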
